A study of Homo sapiens with 10 samples.

Results

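Solute carrier (SLC) genes encode membrane proteins that move amino acids, sugars, ions, metals, nucleosides and vitamins across the plasma membrane and the membranes of organelles. Their RNA levels were compared between U2OS cells, a human osteosarcoma cell line, treated with control siRNA (siCtrl) and U2OS cells treated with a pool of siRNAs against the RNA helicase gene DDX41 (siDDX41), 48 h after knockdown, with 5 libraries per group. Members were chosen by symbol and by level, as the protein-coding genes whose symbol is SLC, a number, A and a number, with a mean over all 10 libraries of at least 1 CPM (counts per 1000000 reads counted in a library), and SLC7A11 was left out by name. Of 340 protein-coding genes with such a symbol, 198 were members, out of 63254 genes in the count tables. A further 106 had counts but a lower mean level, and 35, among them SLC16A1, SLC2A6 and SLC25A6, were listed at 0 in every library. The reason for these zeros was not tested, and they are not read as absence of the RNA. SLC24A3 lay just outside the threshold at 0.951 CPM, and SLC23A3 just inside it at 1.18 CPM. In 4 members (SLC25A48, SLC9A2, SLC37A2 and SLC7A3) only the control group had a mean of 1 CPM or more. All 198 passed the expression filter of the test. SLC7A6OS, SLC4A1AP and SLC2A4RG match the symbol rule but do not encode transporters and were kept apart.

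Many solute carriers work against a gradient by coupling to sodium, protons or an exchanged solute. Amino acid carriers such as SLC7A5 work only as a pair with the heavy chain SLC3A2. Zinc is moved out of the cytosol by the SLC30 family and into it by the SLC39 family. SLC25 proteins are the carriers of the inner mitochondrial membrane and of some other organelles, and SLC2 proteins are the facilitative sugar transporters.

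Between 21807041 and 24896398 reads were counted per library. The BCV (the spread between replicates in the count model) was 3.65%. All libraries come from 1 cell line, and the labels do not say whether replicates were separate cultures. If they were not, the p-values measure only the spread between these libraries. Reads of DDX41, chromosome 5, 177511577 to 177516961, minus strand of GRCh38, were 48.9, 49.7, 47.7, 47.1 and 50.8 CPM in control and 11.4, 13.7, 12.4, 11.0 and 12.2 CPM in siDDX41 libraries (log2 fold change -1.99, standard error 0.05, edgeR adjusted p = 4.47e-24). No siDDX41 library reached the lowest control library (two-sided exact permutation test, p = 0.00794, the smallest p that 5 against 5 libraries allow). Of the mesenchymal and bone lineage markers, VIM, SPARC, COL1A1 and FN1 lay between 1677 CPM (FN1) and 2815 CPM (SPARC) in control cells, COL1A2 was at 0.45 CPM and ALPL at 5.03 CPM. Of the epithelial markers, KRT8 and KRT18 were abundant, CLDN4 and EPCAM were detected at lower levels, and CDH1 and KRT19 were below 1 CPM. Some markers changed with the knockdown, with log2 fold changes of 0.98 for KRT18, 0.46 for KRT8, -1.13 for CLDN4, -0.74 for THY1, -0.70 for ALPL, -0.40 for RUNX2, 0.37 for CD44, 0.18 for SPARC and -0.09 for VIM, and their part in the members' changes was not tested. Of the blood markers, CD3E and HBB were listed at 0, and PTPRC and CD14 were below 1 CPM.

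In DDX41 knockdown cells, 71 members were higher and 69 were lower than in control cells, and 58 were not called (edgeR's quasi-likelihood test, adjusted p under 0.01 over 16143 genes). The called share was 70.7%, beside 62.4% over all genes tested and 69.5% over protein-coding genes with the same minimum level. The upregulated share was 35.9% (30.3% over all genes tested) and the downregulated share 34.8% (32.1%). Over protein-coding genes with the same minimum level these shares were 34.4% and 35%. The CPM of the groups did not overlap in 124 of the 198 members and in 56% of all genes tested. Among protein-coding genes with the same minimum level they did not overlap in 7770 of 12321. The median log2 fold change of the members was -0.05, and that of all genes was 0 to 2 decimals. Called members changed by a median of 0.44 in absolute log2 fold change. This median was 0.41 for all called genes and 0.37 for called protein-coding genes with the same minimum level. A log2 fold change over 0.5 was seen upward in 21 of the 198 members, beside 9.81% of all genes tested, and downward in 42, beside 15.7%. A log2 fold change over 1 was seen upward in 3 members, SLC46A3, SLC49A4 and SLC6A9 (all genes tested: 2.54%), and downward in 16 (all genes tested: 6.08%). The 16 include the 4 members whose mean was at least 1 CPM only in the control group, and without these it was 12 of 194 members (6.19%). Of the 12321 protein-coding genes with the same minimum level, 1093 were called higher and 1838 lower by over 0.5. By over 1, 206 of them were called higher and 615 lower. The called share was close to that of other genes at such levels. In bulk RNA, fewer cells of a kind and less RNA per cell cannot be told apart.

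**Figure D1:**
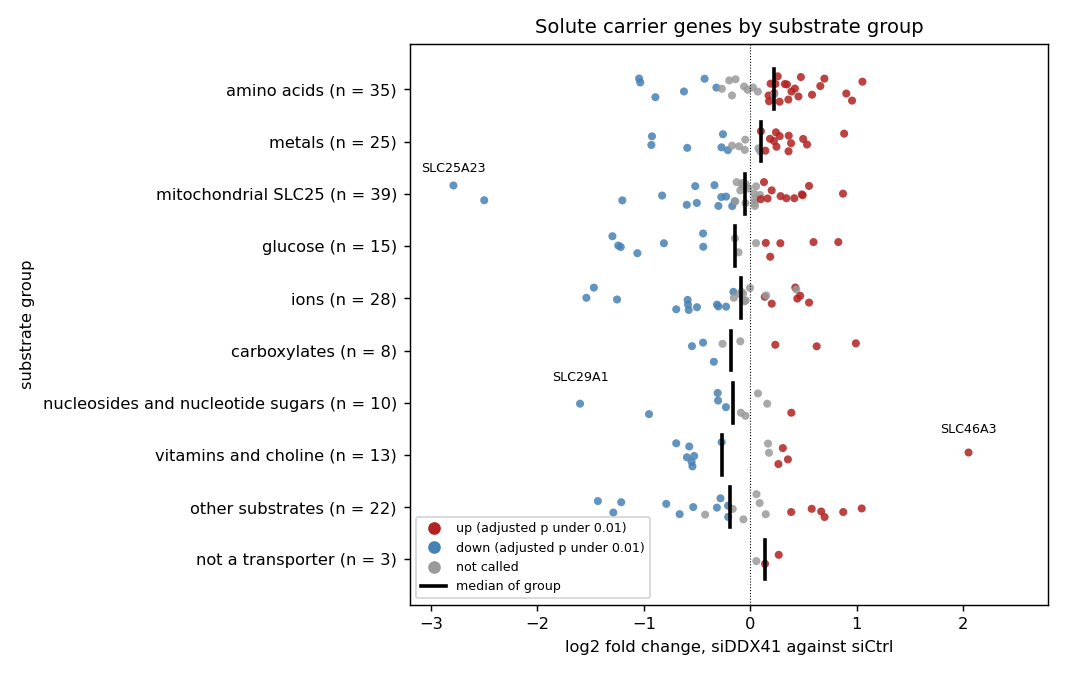
Log2 fold change (siDDX41 against siCtrl, horizontal axis) of each of the 198 members, 1 point per gene, in rows by substrate group, with points coloured by call and a black bar at the group's median. The medians lie between -0.27 (vitamins and choline) and 0.22 (amino acids), with SLC25A23 lowest at -2.79 and SLC46A3 highest at 2.05.

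Promoter windows are shown for the amino acid members whose window holds the letters of the element bound by ATF4, the factor that activates amino acid transport genes when amino acids are short, and for SLC30A1, the classic zinc-responsive carrier. RefSeq (GRCh38.p14) windows of 250 bases before to 50 bases after the start were matched by symbol for 162 of the 198 members. The ATF4 element was searched as TGATGNAA on both strands, and its match is in capitals. It was present in 3.67% of all 27305 windows, in 6.17% of the members' windows, in 4 of 29 amino acid members (13.8%) and in 4 of the 19 of these that rose. Over all substrates it was in 6.56% of the windows of members that rose, 3.77% of those that fell and 8.33% of those not called. The 4 are SLC1A3 (220 bases before the start), SLC3A2 (37 bases after it, on the other strand), SLC7A1 (7 bases after it) and SLC38A1 (4 bases before it). The start is that of the RefSeq window, which for SLC3A2 and SLC38A1 lies 25695 and 3501 bases inside the GENCODE gene and for the others at its first base.
SLC1A3, chr5:36596338-36596637, plus strand: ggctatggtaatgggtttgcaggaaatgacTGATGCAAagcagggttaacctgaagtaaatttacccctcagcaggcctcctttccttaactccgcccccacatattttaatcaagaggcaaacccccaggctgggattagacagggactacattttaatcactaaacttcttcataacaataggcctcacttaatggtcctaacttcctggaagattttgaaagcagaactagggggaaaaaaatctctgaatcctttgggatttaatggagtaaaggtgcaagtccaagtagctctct
SLC3A2, chr11:62881449-62881748, plus strand: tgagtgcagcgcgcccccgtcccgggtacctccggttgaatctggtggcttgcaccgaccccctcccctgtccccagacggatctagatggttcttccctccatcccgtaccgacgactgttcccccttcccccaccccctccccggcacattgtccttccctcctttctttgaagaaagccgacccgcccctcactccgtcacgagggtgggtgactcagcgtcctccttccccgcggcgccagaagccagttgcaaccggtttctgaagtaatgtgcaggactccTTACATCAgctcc
SLC7A1, chr13:29595639-29595938, minus strand: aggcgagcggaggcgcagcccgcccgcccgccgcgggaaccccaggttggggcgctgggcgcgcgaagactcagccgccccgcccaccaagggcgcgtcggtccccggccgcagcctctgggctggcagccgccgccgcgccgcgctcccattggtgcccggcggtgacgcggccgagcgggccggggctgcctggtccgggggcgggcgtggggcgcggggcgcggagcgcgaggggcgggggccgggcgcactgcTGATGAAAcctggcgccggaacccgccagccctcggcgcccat
SLC38A1, chr12:46266467-46266766, minus strand: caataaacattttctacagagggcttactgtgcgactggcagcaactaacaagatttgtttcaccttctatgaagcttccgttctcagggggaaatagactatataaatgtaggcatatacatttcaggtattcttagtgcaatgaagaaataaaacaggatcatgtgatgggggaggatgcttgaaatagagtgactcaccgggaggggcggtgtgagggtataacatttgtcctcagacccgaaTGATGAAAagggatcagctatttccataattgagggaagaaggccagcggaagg

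For SLC30A1, capitals mark the metal response element, searched as TGCACNC and TGCGCNC on both strands. It has 2 matches there, both on the minus strand of the printed sequence, 49 bases before and 24 bases after the start. Such letters were held by 29.3% of all windows and by 7 of 22 windows of metal carriers (31.8%), and by 2 of the 12 metal carriers that rose.
SLC30A1, chr1:211579112-211579411, minus strand: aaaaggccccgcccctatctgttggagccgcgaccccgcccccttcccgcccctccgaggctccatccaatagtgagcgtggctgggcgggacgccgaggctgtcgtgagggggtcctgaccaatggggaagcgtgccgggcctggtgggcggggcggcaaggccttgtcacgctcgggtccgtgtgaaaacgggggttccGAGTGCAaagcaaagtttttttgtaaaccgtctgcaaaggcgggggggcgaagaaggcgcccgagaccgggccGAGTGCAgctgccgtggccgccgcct
The antioxidant response element TGACNNNGC was found in 16% of the members' windows and in 13.6% of all windows. Among members that rose it was in 15 of 61 windows (24.6%), among those that fell in 6 of 53 (11.3%) and among those not called in 5 of 48 (10.4%). The cyclic AMP element TGACGTCA was in 3.09% of the members' windows and 1.98% of all. Matches of TGACNNNGC and of the metal response element shared bases in 60 of all windows and in 0 of the members' windows, and no other pair of the 4 elements shared bases in any window. The matches describe these windows only, and binding was not measured in the data used here.

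Amino acid carriers were more often higher than lower after DDX41 knockdown. Of 35 members, 20 rose, 6 fell and 9 were not called. The upregulated share was 57.1%, beside 30.3% of all genes tested and 34.4% of protein-coding genes with the same minimum level. The downregulated share was 17.1%, beside 32.1% and 35%. Over 0.5 on the log2 scale 6 rose and 4 fell, sizes of change seen in 9.81% and 15.7% of all genes tested. Of the 6 that fell at any size, 2 had a mean of at least 5 CPM. Another of these 6, SLC7A3, had a mean of at least 1 CPM only in the control group. The median log2 fold change was 0.22. Their summed level was 2579 ± 27.2 CPM in control and 3221 ± 32.3 CPM in DDX41 knockdown libraries (SD, n = 5), and every siDDX41 library lay above every control library, also without SLC38A2, the member with the largest difference in CPM (1869.8 ± 44.5 against 2280.0 ± 33.3 CPM). Sums without 1 member were chosen after seeing the data. The SLC38 family, sodium-coupled carriers of glutamine and other neutral amino acids, had 6 of 8 members up and 1 down. The SLC1 family, which carries glutamate and neutral amino acids, had 4 of 5 up and none down. The SLC7 carriers were split, with 3 up, 3 down and SLC7A10 not called.

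SLC38A2 (SNAT2), a sodium-coupled carrier of small neutral amino acids, lies on chromosome 12, 46358188 to 46372773, minus strand. It had 715, 677, 720.4, 729.8 and 705 CPM in the control libraries and 979, 919, 942, 967 and 899 CPM in the siDDX41 libraries. All siDDX41 libraries were above all controls (log2 fold change 0.42, standard error 0.03, edgeR adjusted p = 5.42e-14). SLC38A1 (SNAT1), a glutamine carrier of the same kind, had 61.9, 62.0, 64.8, 65.8 and 60.5 CPM in control and 103, 102, 105, 98.2 and 98.9 CPM in siDDX41 libraries. Its groups were also apart (log2 fold change 0.70, standard error 0.03, edgeR adjusted p = 1.10e-17). SLC38A9, the arginine-sensing carrier of the lysosome, rose from 26.0 ± 1.36 to 38.5 ± 1.62 CPM (log2 fold change 0.58, standard error 0.04, edgeR adjusted p = 1.16e-12). SLC38A10, SLC38A6 and SLC38A7 rose as well, with log2 fold changes of 0.47, 0.45 and 0.17. The member of the family that fell was SLC38A3, at a low level of 3.71 CPM in control cells (log2 fold change -1.04).

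SLC1A5 (ASCT2), a plasma membrane exchanger that brings in glutamine, lies on chromosome 19, 46774883 to 46788594, minus strand. Control libraries held 208, 207, 192, 195 and 208 CPM of it, and siDDX41 libraries held 323, 305, 323, 319.5 and 309.8 CPM. The lowest siDDX41 library exceeded the highest control by far more than the spread within groups (log2 fold change 0.66, standard error 0.03, edgeR adjusted p = 4.87e-18). The related SLC1A4, which carries serine and alanine, rose less (from 56.7 ± 1.71 to 67.2 ± 2.69 CPM, log2 fold change 0.26). The glutamate carriers SLC1A3 and SLC1A1 had log2 fold changes of 0.24 and 0.90, the latter from a mean of 2.06 CPM.

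SLC3A2 (CD98), the heavy chain that places several SLC7 carriers in the membrane, had 218, 220.0, 201, 201 and 209 CPM in control and 258, 263, 268, 268 and 264 CPM in siDDX41 libraries. The groups did not overlap (log2 fold change 0.34, standard error 0.03, edgeR adjusted p = 1.32e-11). Its partner SLC7A5 (LAT1), the main carrier of leucine and other large neutral amino acids, had 411, 447, 376, 392 and 413 CPM in control and 429, 480.0, 466, 463 and 471 CPM in siDDX41 libraries. It was called higher (log2 fold change 0.19, standard error 0.04, edgeR adjusted p = 0.000234), with 1 control library above the lowest siDDX41 library. Other light chains differed, since SLC7A6 rose (0.32 on the log2 scale) and SLC7A8 fell (-0.89) from a mean of 4.80 CPM. The arginine and lysine carriers went separate ways. SLC7A1 (CAT1) rose from 167 ± 1.78 to 201 ± 4.69 CPM (log2 fold change 0.28, standard error 0.03, edgeR adjusted p = 1.67e-10). SLC7A2 (CAT2) fell from 35.6 ± 0.767 to 26.2 ± 2.48 CPM (log2 fold change -0.43, standard error 0.05, edgeR adjusted p = 6.75e-09). SLC7A2 had 24.9, 25.1, 30.6, 25.3 and 25 CPM in the siDDX41 libraries, with replicate 3 above the rest.

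SLC6A9 (GlyT1), which takes up glycine, had the largest upward change among amino acid carriers of at least 5 CPM. It had 19.3, 19.8, 18.1, 17.5 and 19.0 CPM in control and 40.1, 38.4, 39.2, 36.9 and 38.4 CPM in siDDX41 libraries (log2 fold change 1.05, standard error 0.04, edgeR adjusted p = 1.10e-18). SLC6A15, a carrier of branched-chain amino acids and proline, rose from 13.5 ± 0.499 to 26.0 ± 0.496 CPM (log2 fold change 0.96, standard error 0.05, edgeR adjusted p = 7.83e-17). The orphan SLC6A16 fell from 12.5 ± 1.49 to 8.04 ± 0.847 CPM (log2 fold change -0.62, standard error 0.08, edgeR adjusted p = 8.35e-08). The creatine carrier SLC6A8 and the taurine carrier SLC6A6, both well expressed, were not called (-0.06 and 0.07). Exons of SLC6A9 share 7.87% of their bases with CCDC24 on the other strand, a gene with 51.8% as many counts, and its part in the result was not tested.

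**Figure D2:**
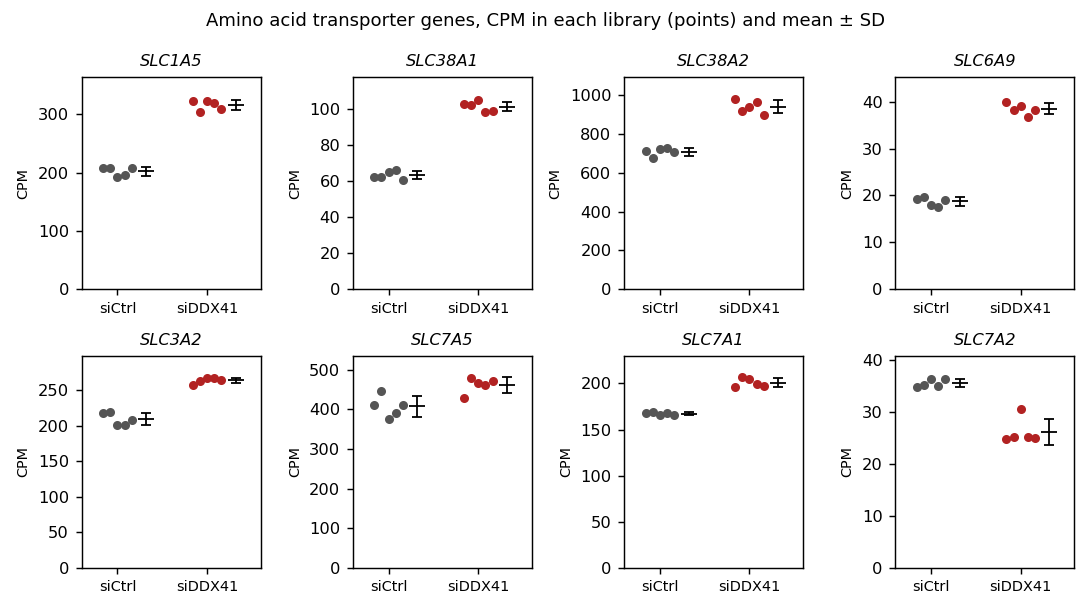
CPM (vertical axes, from 0) of 8 amino acid transporter genes in the 5 siCtrl (grey) and 5 siDDX41 (red) libraries, with mean ± SD beside the points. The groups lie apart in every panel except SLC7A5, and SLC7A2 is the panel in which siDDX41 is lower.

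Metal carriers also had more members up than down. Of 25 members, 13 rose, 6 fell and 6 were not called, with a median log2 fold change of 0.10. The share that rose was 52%, beside 30.3% of all genes tested and 34.4% of protein-coding genes with the same minimum level. Most of the increases were small. Over 0.5 on the log2 scale, 2 members rose (SLC39A10 and SLC41A3) and 3 fell (SLC39A14, SLC39A11 and SLC39A9). Decreases of that size also outnumbered increases over all genes tested (15.7% against 9.81%). The calls of SLC30A9, SLC39A13 and SLC39A4, which rose, were lost in 3, 7 and 7 of the 10 fits that left out a library. The summed level was 1673 ± 24.9 CPM in control and 1743 ± 23.1 CPM in DDX41 knockdown libraries (SD, n = 5), without overlap between groups. The higher sum rested on SLC39A10, since without it the sum was 1547 ± 22.7 against 1513 ± 12.4 CPM, lower in siDDX41 and with overlap.

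The SLC39 (ZIP) importers held the largest changes in either direction. SLC39A10 (ZIP10), a plasma membrane zinc importer on chromosome 2, 195575977 to 195737702, plus strand, had 129, 127, 126, 122 and 126 CPM in control and 238, 228, 239, 235 and 212 CPM in siDDX41 libraries. It was higher in every siDDX41 library (log2 fold change 0.88, standard error 0.03, edgeR adjusted p = 1.91e-20). SLC39A14 (ZIP14), which carries zinc, iron and manganese, lies on chromosome 8, 22367278 to 22434129, plus strand. It had 198, 199.8, 196, 193 and 189 CPM in control and 102, 103, 102, 102 and 99.1 CPM in siDDX41 libraries, and every siDDX41 library was far below the controls (log2 fold change -0.93, standard error 0.03, edgeR adjusted p = 3.04e-22). SLC39A11 and SLC39A9, zinc carriers of the Golgi and other inner membranes, fell from 43.0 ± 0.891 to 22.5 ± 0.578 CPM and from 207 ± 6.18 to 136 ± 4.46 CPM (SD, n = 5; log2 fold changes -0.92 and -0.59). Counted over the family, 6 of 10 SLC39 members rose and 3 fell, beside 30.3% and 32.1% of all genes tested.

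Among the 7 SLC30 (ZnT) exporters, 3 rose and 1 fell, beside 30.3% and 32.1% of all genes tested. SLC30A1 (ZnT1), the zinc exporter of the plasma membrane whose promoter is printed above, had 128, 121, 123, 117 and 121 CPM in control and 179, 169.9, 172, 176 and 156 CPM in siDDX41 libraries. All siDDX41 libraries were above all controls (log2 fold change 0.50, standard error 0.03, edgeR adjusted p = 6.93e-14). SLC30A5, which loads zinc into the early secretory pathway, had a log2 fold change of 0.28, and SLC30A4, which fills endosomes and vesicles, of -0.27. The zinc-sensing factor gene MTF1 was at 41.2 and 41.1 CPM and was not called. Of the metallothionein genes, which also respond to zinc, MT1E and MT1X fell (-0.56 and -0.74) and MT2A was not called (0.04).

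**Figure D3:**
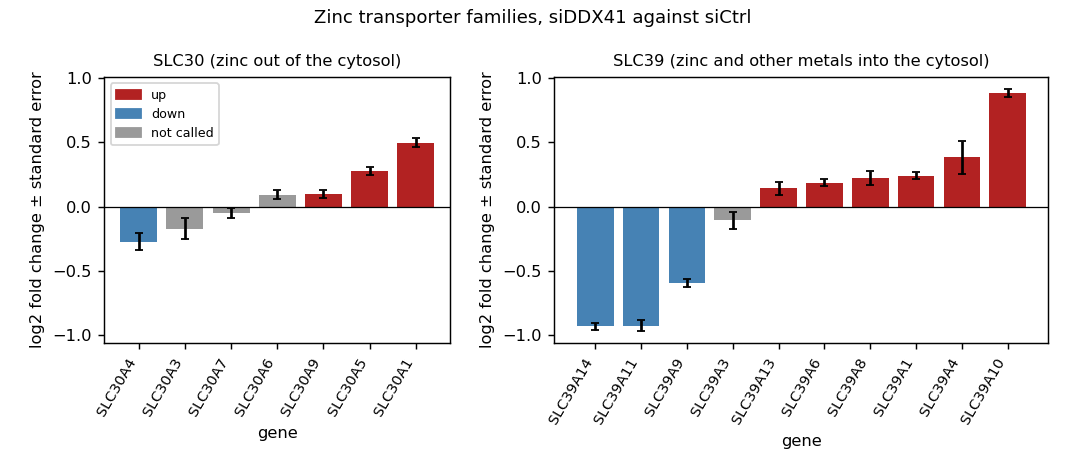
Log2 fold change (siDDX41 against siCtrl, vertical axes) of the 7 SLC30 and 10 SLC39 members, with bars coloured by call and error bars of 1 standard error. The SLC30 bars run from -0.27 to 0.50, and the SLC39 bars from -0.93 to 0.88.

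Of the iron and copper carriers, SLC11A2 (DMT1), the iron importer of endosomes, rose from 69.5 ± 1.38 to 81.7 ± 3.35 CPM (log2 fold change 0.25, standard error 0.03, edgeR adjusted p = 1.15e-07). The iron exporter SLC40A1 (ferroportin) had 62.7, 64.1, 62.0, 58.3 and 57.9 CPM in control and 56.9, 58.9, 56.3, 60.6 and 60.2 CPM in siDDX41 libraries and was not called (log2 fold change -0.05, standard error 0.04, edgeR adjusted p = 0.252). Its groups overlapped. The heme carrier SLC48A1 rose (0.36 on the log2 scale), and the copper importers SLC31A1 and SLC31A2 fell (-0.21 and -0.26). SLC31A2 shares 64% of its exon bases with FKBP15 on the other strand, and its call was lost without control replicate 1 or 4 or knockdown replicate 2 or 3. The magnesium family SLC41 had 2 of 3 members up (30.3% of all genes tested rose), of which SLC41A3 rose from 45.7 ± 1.5 to 65.6 ± 2.25 CPM (log2 fold change 0.53, standard error 0.04, edgeR adjusted p = 5.19e-14).

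The mitochondrial SLC25 family was the largest, with 39 members, of which 11 rose, 13 fell and 15 were not called. The 13 include SLC25A48, whose mean was at least 1 CPM only in the control group. In the 10 fits that left out a library, 8 to 11 members were called higher and 12 to 13 lower. The called share was 61.5%, beside 62.4% of all genes tested and 69.5% of protein-coding genes with the same minimum level. The median log2 fold change was -0.05. The lowest value of all members was in this family. SLC25A23, a calcium-regulated carrier of ATP and phosphate, lies on chromosome 19, 6436079 to 6465203, minus strand. It had 107, 101, 100.1, 107 and 107 CPM in control libraries and 14.6, 16.9, 14.5, 14.2 and 14.7 CPM in siDDX41 libraries. The highest siDDX41 library was far below the lowest control, and the fitted level was 6.90-fold lower (log2 fold change -2.79, standard error 0.04, edgeR adjusted p = 2.43e-28). The related calcium-regulated carriers SLC25A24 and SLC25A25 had log2 fold changes of 0.10 (called) and 0.04 (not called), and the call of SLC25A24 was lost without control replicate 1, 3 or 5 or knockdown replicate 2 or 4.

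SLC25A1, the citrate carrier that supplies cytosolic acetyl-CoA, had 69.4, 73.6, 69.8, 69.5 and 72.5 CPM in control and 39.8, 40.7, 38.4, 39.1 and 40.5 CPM in siDDX41 libraries. The groups were well apart (log2 fold change -0.83, standard error 0.03, edgeR adjusted p = 7.29e-19). SLC25A42, a carrier of coenzyme A, fell from 7.47 ± 0.234 to 5.17 ± 0.399 CPM (log2 fold change -0.52, standard error 0.08, edgeR adjusted p = 7.92e-07). SLC25A45 and SLC25A37 were among the members of the family that rose most. SLC25A45 rose from 7.53 ± 0.523 to 13.7 ± 0.885 CPM (log2 fold change 0.87, standard error 0.07, edgeR adjusted p = 1.21e-12). SLC25A37 (mitoferrin), which brings iron into mitochondria for heme and iron-sulfur clusters, had 58.9, 60.9, 59.8, 58.6 and 60.7 CPM in control and 85.8, 90.8, 81.5, 77.0 and 82.3 CPM in siDDX41 libraries (log2 fold change 0.49, standard error 0.04, edgeR adjusted p = 4.95e-13). Its paralog SLC25A28 was not called (-0.05).

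Per kilobase of exon, SLC25A5, an ADP/ATP exchanger, had the highest level of all members, 324 ± 9.10 CPM per kb in control cells (SD, n = 5), and SLC38A2 followed with 109 ± 3.10 CPM per kb and SLC7A5 with 85.6 ± 5.56 CPM per kb. Its level changed little, as SLC25A5 fell from 504 ± 14.1 to 445 ± 6.89 CPM (log2 fold change -0.17, standard error 0.03, edgeR adjusted p = 1.15e-06). It has near-identical pseudogene copies, so its counts depend on how such reads were treated. The phosphate carrier SLC25A3 had 406, 409, 401, 404 and 401 CPM in control and 377, 382, 396, 394 and 392 CPM in siDDX41 libraries. These do not overlap, but the difference did not pass the test (log2 fold change -0.05, standard error 0.03, edgeR adjusted p = 0.103). The summed level of the family was 2249 ± 33.2 CPM in control and 2057 ± 10.8 CPM in DDX41 knockdown libraries (SD, n = 5). Without SLC25A23 the difference was smaller, with 2145 ± 33.8 against 2042 ± 11.3 CPM.

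Sugar carriers held larger decreases than increases. Of 15 members, 5 rose (33.3%, beside 30.3% of all genes tested) and 7 fell (46.7%, beside 32.1%). Among protein-coding genes with the same minimum level, 34.4% rose and 35% fell. Of the 7, 4 fell by more than 1 on the log2 scale, a size of decrease seen in 6.08% of all genes tested, and 1 of these 4, SLC37A2, had a mean of at least 1 CPM only in the control group. The summed level went the other way, with 728 ± 9.71 CPM in control and 757 ± 28.4 CPM in DDX41 knockdown libraries (SD, n = 5) and overlap between groups, and without SLC5A3 it was 599 ± 9.88 against 531 ± 18.5 CPM, lower in siDDX41. SLC2A12 (GLUT12), on chromosome 6, 133987581 to 134052624, minus strand, had 134, 129.9, 139.8, 132 and 138 CPM in control and 54.0, 64.6, 53.4, 54.6 and 56.3 CPM in siDDX41 libraries. The groups were far apart, with siDDX41 replicate 2 highest of its group (log2 fold change -1.24, standard error 0.04, edgeR adjusted p = 4.45e-20). Of its exon bases, 51.2% are shared with TBPL1 on the other strand, which had 41.3% as many counts, and reads from the pair cannot be told apart where the counting did not use strand. SLC2A10 (GLUT10), a carrier of inner membranes, had 27.4, 27.1, 29.2, 29.8 and 29.1 CPM in control and 10.2, 13.1, 10.2, 12.1 and 12.1 CPM in siDDX41 libraries (log2 fold change -1.29, standard error 0.06, edgeR adjusted p = 9.42e-18). It shares no exon bases with another counted gene. SLC45A3, a sugar carrier of the SLC45 family, fell from 18.9 ± 0.867 to 9.0 ± 0.356 CPM (log2 fold change -1.06, standard error 0.06, edgeR adjusted p = 5.44e-16).

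The glucose importers SLC2A1 and SLC2A3 moved the other way by small amounts, while SLC2A4 (GLUT4) and SLC2A8, at lower levels, fell (-0.81 and -0.44). SLC2A1 (GLUT1), the basal glucose transporter of most cells, had 206, 217, 194, 191 and 195 CPM in control and 224, 235, 219, 222 and 233 CPM in siDDX41 libraries. Its groups did not overlap, though the gap between them was smaller than the range within either (log2 fold change 0.19, standard error 0.03, edgeR adjusted p = 8.95e-06). SLC2A3 (GLUT3), a high-affinity glucose transporter, rose from 83.1 ± 1.95 to 100.3 ± 6.27 CPM (log2 fold change 0.28, standard error 0.04, edgeR adjusted p = 3.63e-08). It has a near-identical paralog, SLC2A14, which was not called (-0.14), and reads could be split between them. Larger increases were seen in the inositol carriers. SLC5A3, a sodium-coupled inositol transporter that responds to osmotic stress, had 118, 112, 148, 141 and 125 CPM in control and 266, 231, 224, 208 and 203 CPM in siDDX41 libraries. Replicate 1 was highest and replicate 5 lowest of the siDDX41 libraries, and the groups were apart (log2 fold change 0.83, standard error 0.10, edgeR adjusted p = 5.49e-05). SLC5A3 shares exon bases with MRPS6 on the same strand. The proton-coupled inositol carrier SLC2A13 rose from 6.56 ± 0.692 to 9.84 ± 0.813 CPM (log2 fold change 0.59, standard error 0.08, edgeR adjusted p = 1.28e-07). TXNIP, whose protein promotes the endocytosis of GLUT1, fell from 29.9 ± 3.55 to 9.78 ± 1.13 CPM (log2 fold change -1.60).

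**Figure D4:**
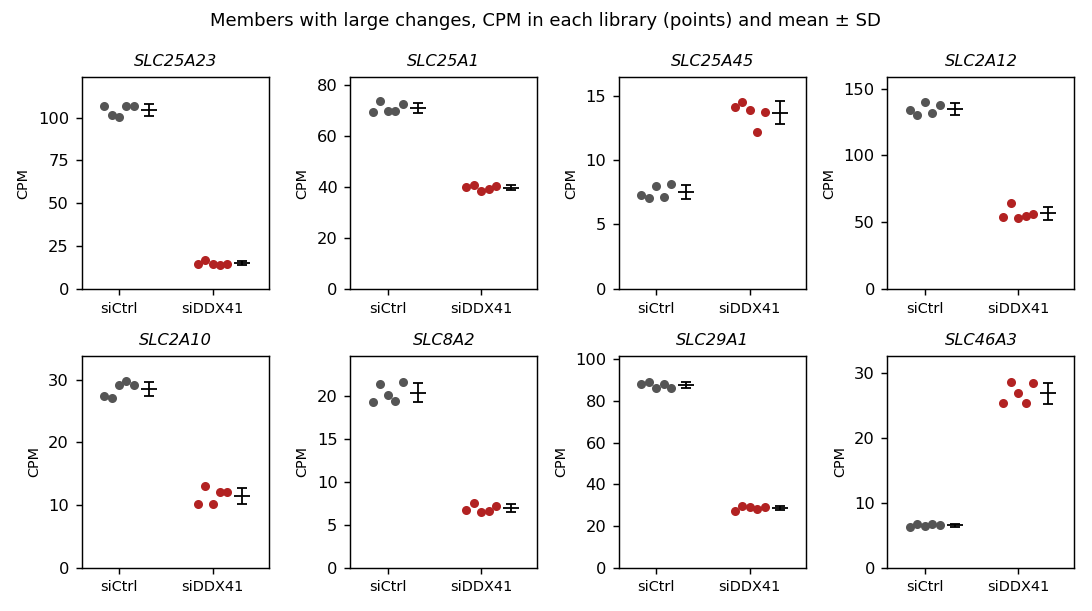
CPM (vertical axes, from 0) of 8 members from 5 substrate groups in the 5 siCtrl (grey) and 5 siDDX41 (red) libraries, with mean ± SD beside the points. SLC25A45 and SLC46A3 are higher in siDDX41 and the other 6 are lower, and no panel has overlapping groups.

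Ion carriers were more often lower. Of 28 members, 6 rose, 12 fell and 10 were not called, with a median log2 fold change of -0.09. The share that fell was 42.9%, beside 32.1% of all genes tested and 35% of protein-coding genes with the same minimum level. The 12 include SLC9A2, whose mean was at least 1 CPM only in the control group. SLC8A2, a sodium-calcium exchanger of the plasma membrane, had 19.3, 21.4, 20.1, 19.4 and 21.7 CPM in control and 6.79, 7.57, 6.55, 6.66 and 7.21 CPM in siDDX41 libraries. All siDDX41 libraries were below all controls (log2 fold change -1.54, standard error 0.06, edgeR adjusted p = 3.11e-19). SLC24A1, an exchanger of sodium against calcium and potassium, fell from 21.7 ± 1.84 to 9.07 ± 0.79 CPM (log2 fold change -1.25, standard error 0.07, edgeR adjusted p = 2.28e-16). SLC9A7, a sodium-proton exchanger of the Golgi and endosomes, rose from 38.1 ± 2.41 to 50.6 ± 2.78 CPM (log2 fold change 0.42, standard error 0.04, edgeR adjusted p = 8.17e-10).

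Among the bicarbonate carriers (SLC4), SLC4A7 and SLC4A4 rose, and SLC4A3 and SLC4A8 fell. SLC4A7 had 57.6, 54.0, 59.2, 54.3 and 54.2 CPM in control and 67.3, 65.4, 65.2, 62.5 and 58.5 CPM in siDDX41 libraries (log2 fold change 0.20, standard error 0.04, edgeR adjusted p = 3.21e-05), with 1 overlapping pair of libraries. SLC4A4 had a log2 fold change of 0.55 from a mean of 1.85 CPM, and SLC4A3 and SLC4A8 each had -0.58. The cation-chloride cotransporters (SLC12) had 4 of 7 members down and 1 up, beside 32.1% and 30.3% of all genes tested, and the calls of SLC12A8 and SLC12A9 were lost in 8 and 1 of the 10 fits that left out a library. The one that rose was SLC12A4 (KCC1), which lets potassium and chloride out of swollen cells (from 117 ± 2.20 to 161 ± 3.94 CPM, log2 fold change 0.47, standard error 0.03, edgeR adjusted p = 3.35e-15). The importer SLC12A2 (NKCC1) had 106 ± 4.26 and 100.1 ± 2.18 CPM and was not called (log2 fold change -0.07, standard error 0.03, edgeR adjusted p = 0.0464). Without control replicate 2 it was called lower (log2 fold change -0.09, edgeR adjusted p = 0.00794). Of the kinases that control them, STK39 and WNK3 rose (0.64 and 0.18), and OXSR1, WNK1 and WNK2 fell (-0.63, -0.20 and -0.48). WNK4 was not called (0.13). The phosphate importers also differed, since SLC20A2 rose from 42.4 ± 1.19 to 57.1 ± 2.17 CPM (log2 fold change 0.44, standard error 0.04, edgeR adjusted p = 1.01e-11), and the more abundant SLC20A1 was not called (log2 fold change -0.07, standard error 0.03, edgeR adjusted p = 0.0314). The sulfate carrier SLC26A2 fell from 129 ± 6.28 to 85.2 ± 3.50 CPM (log2 fold change -0.59).

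Nucleoside carriers of the SLC29 family were lower in 3 of 4 members, beside 32.1% of all genes tested. SLC29A1 (ENT1), which moves nucleosides and nucleoside drugs across the plasma membrane, lies on chromosome 6, 44219553 to 44234142, plus strand. It had 88.3, 89.3, 86.4, 88.0 and 86.3 CPM in control and 27.2, 29.7, 29.2, 28.3 and 29.2 CPM in siDDX41 libraries. The fitted level was 3.03-fold lower, with narrow spread in both groups (log2 fold change -1.60, standard error 0.03, edgeR adjusted p = 2.34e-25). SLC29A4, which carries monoamines and adenosine, fell from 63.3 ± 5.30 to 32.5 ± 1.37 CPM (log2 fold change -0.95, standard error 0.05, edgeR adjusted p = 1.79e-15). The nucleobase carrier SLC43A3 rose from 38.2 ± 0.926 to 49.5 ± 1.39 CPM (log2 fold change 0.39, standard error 0.04, edgeR adjusted p = 1.77e-10). The summed level of the 10 members of the nucleoside and nucleotide sugar group was 459 ± 6.43 CPM in control and 351 ± 6.89 CPM in DDX41 knockdown libraries (SD, n = 5). Without SLC29A1 the difference was smaller, with 371 ± 6.13 against 323 ± 6.10 CPM.

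The group of vitamin and choline carriers held the largest increase of all members and had 4 of 13 members up (30.8%, beside 30.3% of all genes tested) and 7 down (53.8%, beside 32.1%). For protein-coding genes with the same minimum level these shares were 34.4% and 35%. The largest increase was in SLC46A3, a carrier of the lysosomal membrane that was counted in this group with the SLC46 family. SLC46A3 had 6.22, 6.73, 6.44, 6.71 and 6.58 CPM in control and 25.3, 28.5, 26.8, 25.3 and 28.5 CPM in siDDX41 libraries. The fitted level was 4.14-fold higher (log2 fold change 2.05, standard error 0.06, edgeR adjusted p = 1.48e-22). SLC46A1, the proton-coupled folate transporter of the same family, fell from 28.8 ± 0.817 to 17.6 ± 0.527 CPM (log2 fold change -0.70, standard error 0.05, edgeR adjusted p = 3.43e-14). SLC46A1 shares 55.6% of its exon bases with SARM1 on the other strand. All 4 choline-transporter-like members (SLC44) fell, with log2 fold changes of -0.59 to -0.27. SLC23A2, which takes up vitamin C, fell from 53.7 ± 1.65 to 35.8 ± 1.53 CPM (log2 fold change -0.57, standard error 0.04, edgeR adjusted p = 4.32e-14). SLC5A6, the sodium-coupled carrier of biotin and pantothenate, rose from 104 ± 1.97 to 132 ± 5.82 CPM (log2 fold change 0.35, standard error 0.03, edgeR adjusted p = 3.61e-11), and 6.82% of its exon bases are shared with ATRAID on the other strand. The folate and thiamine carriers SLC19A1 and SLC19A2 rose by less (0.31 and 0.26).

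Of 8 monocarboxylate and related carriers, 3 rose and 3 fell, or 37.5% each way, near the 34.4% and 35% of protein-coding genes with the same minimum level. Over all genes tested, 30.3% rose and 32.1% fell. SLC16A3 (MCT4), a lactate exporter of glycolytic cells, had 4.31, 5.21, 4.66, 3.51 and 4.78 CPM in control and 7.80, 7.04, 6.59, 5.61 and 7.42 CPM in siDDX41 libraries (log2 fold change 0.62, standard error 0.10, edgeR adjusted p = 2.13e-06). It was at a low level, and CSNK1D on the other strand, which shares 5.22% of its exon bases, had many times its counts. SLC16A7 (MCT2) had 18.0, 18.3, 18.0, 18.9 and 16.4 CPM in control and 22.6, 19.0, 23.1, 22.6 and 17.2 CPM in siDDX41 libraries, with overlap. The call of the SLC16A7 log2 fold change (log2 fold change 0.23, standard error 0.07, edgeR adjusted p = 0.0049) was lost in 6 of the 10 fits that left out a library, with control replicate 1, 3 or 5 or knockdown replicate 1, 3 or 4 left out (log2 fold change 0.20 to 0.24, edgeR adjusted p = 0.0102 to 0.0175). SLC16A13 fell from 10.6 ± 0.745 to 7.76 ± 0.545 CPM (log2 fold change -0.44, standard error 0.07, edgeR adjusted p = 2.30e-06).

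Among the 22 carriers of other substrates, 6 rose (27.3%, beside 30.3% of all genes tested) and 10 fell (45.5%, beside 32.1%). At the same minimum level, 34.4% of protein-coding genes rose and 35% fell. SLC49A4 had 18.9, 18.2, 17.9, 19.7 and 19.0 CPM in control and 41.0, 37.9, 40.7, 36.3 and 36.3 CPM in siDDX41 libraries (log2 fold change 1.05, standard error 0.05, edgeR adjusted p = 6.01e-18). SLC17A5 (sialin), which exports sialic acid from lysosomes, rose from 21.9 ± 1.33 to 39.8 ± 1.74 CPM (log2 fold change 0.87, standard error 0.05, edgeR adjusted p = 3.34e-16). Both were higher in every siDDX41 library. SLC18A2, the vesicular monoamine transporter, fell from 17.2 ± 0.751 to 7.35 ± 0.611 CPM (log2 fold change -1.21, standard error 0.06, edgeR adjusted p = 2.79e-16), with 52.3% of its exon bases shared with PDZD8 on the other strand. SLC27A1, which takes up long-chain fatty acids, fell from 34.4 ± 1.74 to 19.8 ± 0.916 CPM (log2 fold change -0.79, standard error 0.05, edgeR adjusted p = 3.10e-15). The carnitine carrier SLC22A5 and SLC22A4 of the same family rose (0.67 and 0.70). Of the symbol matches that are not transporters, SLC2A4RG and SLC4A1AP were higher (0.27 and 0.14), and SLC7A6OS was not called (0.06).

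**Figure D5:**
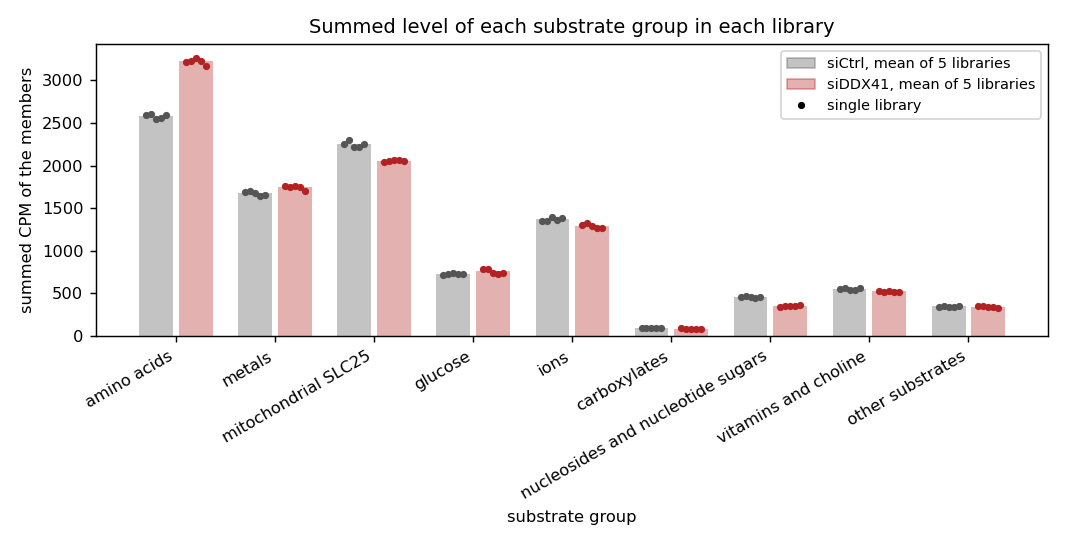
Summed CPM (vertical axis, from 0) of the members of each substrate group, with bars for the mean of the 5 siCtrl (grey) and 5 siDDX41 (red) libraries and a point for each library. Amino acid carriers rise from 2579 to 3221 CPM, and nucleoside and nucleotide sugar carriers fall from 459 to 351 CPM.

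Besides the overlaps given above, other members named here share exon bases with a gene that had at least 10% of their counts. On the opposite strand these are SLC4A1AP, SLC29A4, SLC20A2, SLC39A9, SLC24A1, SLC2A4RG, SLC48A1, SLC38A6, SLC19A1, SLC4A8, SLC22A4, SLC22A5, SLC25A25, SLC12A9 and SLC7A10, and SLC7A6 and SLC7A6OS overlap each other. On the same strand these are SLC12A4 (with LCAT) and SLC23A3, and SLC25A48 overlaps genes on both strands. The part of these overlaps in the results was not tested gene by gene.

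The genes that work with solute carriers changed in both directions too. Of 33 partner genes, 12 rose and 15 fell, and of 26 genes of amino acid and metal sensing, 12 rose and 9 fell, beside 30.3% and 32.1% of all genes tested. ATP1B1 and ATP1B3, beta subunits of the sodium pump, which maintains the gradient that many members use, rose (0.44 and 0.42). ATF4 rose from 304 ± 5.72 to 397 ± 8.59 CPM (log2 fold change 0.40, standard error 0.03, edgeR adjusted p = 4.62e-14). Among other sensing genes, EIF2AK4 rose (0.22), EIF2AK3 and SESN2 fell (-0.33 and -0.19) and DDIT3 was not called (0.06). The part of ATF4 in the carriers' changes was not tested. The transferrin receptor TFRC and the ferritin chains FTL and FTH1 rose (0.56, 1.05 and 0.43). Of the iron-sensing genes, ACO1 fell from 127 ± 2.88 to 71.7 ± 1.80 CPM (log2 fold change -0.82), and IREB2 was not called (-0.05). The mitochondrial serine carrier SFXN1, which has no SLC symbol, fell from 196 ± 4.82 to 86.5 ± 2.92 CPM (log2 fold change -1.17).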

How the data were processed

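The authors prepared libraries from polyadenylated RNA with a stranded kit, sequenced them as single reads and aligned these with STAR 2.7 against hg38 and a Gencode annotation, then counted them per gene with featureCounts 1.6 (versions per the submitters' processing notes). The deposited values are read counts per gene of 1 library each, not normalized. The strand setting is not given in the sources used here. Symbols and positions come from GENCODE 44 (GRCh38), matched on the identifier without its version, and 98.7% of the 16143 genes tested had a match.

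Levels are counts divided by the library total and multiplied by 1000000 (CPM), as mean ± SD over 5 libraries. Groups were compared in R 4.3.3 with edgeR 4.0.16 (filterByExpr, TMM factors of 0.991 to 1.01, robust quasi-likelihood test, Benjamini-Hochberg adjustment over all genes tested, threshold 0.01). DESeq2 1.42.0 and other settings served as alternatives. Standard errors were derived from the F statistic. Totals of 21807041 to 24896398 limit members at a few CPM.

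The members, substrate groups and lists were chosen with earlier results of these data known. Named members were well-known carriers and, in each group, up to 3 called members each way (2 in the smaller groups) with the largest change among those of at least 5 CPM, and others were named after their values were seen. Some genes enter the counts but are not reported by name here. SLC7A6OS and SLC4A1AP were moved to the non-transporters once the member list was known. Of the 198 members, 85 share exon bases with another counted gene, and in 51 that gene had at least 10% of their counts.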

Additional observations from a re-analysis of the deposited data

Results flagged for a closer look

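In each group of 5 libraries, a library was singled out when its gap to the nearest other library was over 0.71 of the group's range. This was applied to 114 groups (DDX41 and 56 named members, in both conditions), and 7 groups met it. Chance gives about 1 in 20 groups. Control replicate 3 was lowest for SLC45A3 at 17.4 CPM. Control replicate 1 was highest for SLC5A6 at 108 CPM. Knockdown replicate 2 was highest for SLC25A23 at 16.9 CPM and for SLC2A12 at 64.6 CPM. Knockdown replicate 3 was highest for SLC7A2 at 30.6 CPM, replicate 4 was lowest for SLC2A4RG at 63.8 CPM, and replicate 5 was lowest for SLC39A14 at 99.1 CPM.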

How the results depend on the processing

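Under library scaling by DESeq2 size factors or by totals, no filter, DESeq2's Wald test, an adjusted p under 0.05 and each of 10 left-out libraries, the counts of members up and down stayed within 1.5 times those reported, in total and in the 5 substrate groups of amino acids, metals, mitochondria, glucose and ions. With libraries left out they lay between 65 and 69 up and between 66 and 69 down, and 60 members were called higher and 63 lower in every such fit. No called member changed sign under any fit. Requiring a log2 fold change over 0.5 left 21 members up and 42 down. By substrate group it left 6 amino acid carriers up and 4 down, 2 metal carriers up and 3 down, 2 mitochondrial carriers up and 7 down, 2 sugar carriers up and 5 down, and 1 ion carrier up and 8 down. Over all genes tested it left 9.81% up and 15.7% down, so decreases of that size were more frequent there too. Requiring 5 CPM left 2 amino acid carriers down. DESeq2 called 68 members up and 65 down. Among members that share no exon bases with a gene of 10% of their counts, a choice made after seeing the data, 52 rose and 51 fell. At an adjusted p under 0.05, SLC12A2 and SLC20A1 (-0.07 each) would be called lower. Of 944 values under alternatives of the 59 members that the naming rule chose, 935 kept their side of the threshold, 6 (all SLC16A7) lost it and 3 gained it, 1 of them SLC12A2 without control replicate 2.

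With the replicate number as a block, 71 members were up and 68 down. Deviations from the group mean correlated between libraries of the same number at -0.0524 to 0.0446, none over 0.1, and 1 of 5 control libraries was closest to its own number, so the numbers are not treated as pairs. Standard errors reach 0.209 on the log2 scale, for SLC37A2, which had a mean of 1.20 CPM.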
